A study of Danio rerio with 4 samples.

Results

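Short mixed microsatellites are stretches of DNA in which a unit of 1 to 4 bases, with at least 1 C or G, is repeated head to tail. The names were chosen by spelling alone from the authors' table of reads per repeat name: a unit of 1 to 4 letters in round brackets followed by n, with no C directly followed by G when the unit is read as a circle. Of the 11258 repeat names in the table, 231 met this rule. They hold 2 names with a unit of 1 base, 9 with a unit of 2 bases, 43 with a unit of 3 bases and 177 with a unit of 4 bases.

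The reads came from RNA of pooled zebrafish larvae at 5 days (120 h) after fertilisation, after removal of ribosomal RNA. The tested larvae carried the uhrf1(hi272) genotype, called mutants here, and were sorted by their appearance. Their siblings were those with a normal appearance, so the labels do not separate wild-type from heterozygous fish, and the sibling columns carry the name ABNYU. Each group has 2 libraries, from 10 to 20 larvae a pool (10 in the extraction protocol), 2 clutches and 1000 ng of RNA, read as single ends of 75 bp.

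Microsatellites arise when DNA polymerase slips on a short repeated motif, and mismatch repair removes most such slips. Many such tracts lie in introns, untranslated regions and intergenic DNA. Reads on them can come from a longer host transcript and not from a transcript of the repeat itself. Where the tracts counted here lie was not looked up. Uhrf1 brings the maintenance methyltransferase Dnmt1 to newly copied DNA, where the methylated base is the C of a C followed by a G; by the rule, the units described here contain no such pair.

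A name in the table stands for every tract that the annotation wrote in that phase and orientation. Tracts of the same DNA therefore appear under several names: a tract seen from the other strand has the reverse complement as its unit, and a tract that starts 1 base later has a rotated unit. The 231 names reduce in this way to 37 groups within a unit length, each called a repeat below. Names called the same DNA share a repeated sequence, but each name counts its own tracts. A comparison of such names is therefore one of different tracts. Of the names, 11 repeat a shorter unit, so groups of different unit length can be the same DNA, as (AG)n and (AGAG)n are. The names on which the results turn are written out here to 12 bases from the name itself, 5′ to 3′, with the first unit in capitals. They are not the sequence of any 1 locus.
microsatellite (CCTC)n: CCTCcctccctc
microsatellite (GAGG)n: GAGGgagggagg
microsatellite (ACC)n: ACCaccaccacc
microsatellite (GGT)n: GGTggtggtggt
microsatellite (TGG)n: TGGtggtggtgg
microsatellite (TCTC)n: TCTCtctctctc
microsatellite (CTCT)n: CTCTctctctct
microsatellite (TACA)n: TACAtacataca
microsatellite (TGTA)n: TGTAtgtatgta
microsatellite (GT)n: GTgtgtgtgtgt
microsatellite (AC)n: ACacacacacac
microsatellite (TGGA)n: TGGAtggatgga
microsatellite (TCCA)n: TCCAtccatcca
In this list (CCTC)n and (GAGG)n are the same repeated sequence written from opposite strands. So are (ACC)n and (GGT)n, (TACA)n and (TGTA)n, (GT)n and (AC)n, and (TGGA)n and (TCCA)n. (TGG)n is a rotation of (GGT)n, and (TCTC)n and (CTCT)n differ only in phase. Whether the counting used strand is not given in the sources used here.

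The libraries stood apart in more than genotype. Gene reads numbered 571978 and 564941 in mutants, against 613370 and 812167 in siblings, whereas repeat reads numbered 9671737 and 10559130 in mutants, against 2108906 and 1611818 in siblings. Hepatocyte markers took 0.731% and 0.460% of gene reads in mutants, against 24.5% and 19.1% in siblings, and 19 of 20 tested hepatocyte markers were lower in mutants. All 13 tested skeletal muscle markers, all 5 lens markers and all 3 neuron markers were higher in mutants, and the lens markers summed to 446 and 550 reads in mutants, against 1 and 0 reads in the libraries labelled sibling. Exocrine pancreas markers summed to 16 and 16 reads in mutants, against 296 and 103460 reads in siblings. The libraries labelled sibling thus nearly lack RNA of lens and neurons, although the labels describe them as whole larvae, and their difference from the mutant libraries in cell types cannot be told apart from genotype. UHRF1 itself had 7 and 9 reads in mutants, against 2 and 17 reads in siblings, too few to be tested, and DNMT1 had 58 and 73 reads in mutants, against 4 and 14 reads in siblings. In bulk RNA, fewer cells of a type and less RNA per cell cannot be told apart.

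Levels are given in CPM, here reads per 1000000 effective gene reads of the same library, after trimmed-mean scaling of the gene table (TMM). Repeat reads outnumbered the gene reads to which they are scaled: there were 16.9 and 18.7 repeat reads per gene read in mutants, against 3.44 and 1.98 in siblings. No tract length is given for a name, so levels of different names are not levels per length. Changes were tested with edgeR's quasi-likelihood test over all repeat names and adjusted with the Benjamini-Hochberg method, at a threshold of 0.05.

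With gene scaling, most of these microsatellites were higher in mutants, about as often as repeats in general. Of the 206 names with enough reads to be tested, 172 had a higher level in mutants, 8 had a lower one and 26 did not pass. Over all 3366 repeat names tested, 76.7% were higher in mutants and 4.25% were lower. Both mutants lay above both siblings for 184 of the 206 names and below them for 9, that is, the groups did not overlap for 193; over all names tested 91.6% did not overlap and 85.7% had both mutants above. The median log2 fold change was 1.74 over the microsatellites and 1.98 over all names tested, so the microsatellites stood slightly under the general shift. Their fitted values ran between -3.67 and 8.76, with quartiles of 1.04 and 2.46. The count rested on both mutant libraries: 111 were higher and 4 lower without mutant replicate 1, beside 45.3% and 1.67% of all names, and 101 were higher and 4 lower without mutant replicate 2, beside 42.2% and 1.79%. Leaving out a sibling library gave 182 higher and 7 lower without replicate 1, beside 72.0% and 3.69% of all names, and 183 higher and 8 lower without replicate 2, beside 69.6% and 4.34%. With no count filter 137 of 228 names were higher and 4 lower, beside 24.1% and 1.11% of all names. The other 25 names were not tested, 3 of them without any read, and the most read of them had 50 reads summed over the 4 libraries.

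The direction of the shift depended on what the libraries were scaled to. Scaled to plain gene totals, 206 of 214 names were higher in mutants and 1 was lower, beside 94.4% and 0.809% of all names; the median log2 fold change was 3.41 beside 3.66 over all names. Scaled to repeat totals, 83 of 205 were higher and 20 were lower, beside 39.0% and 9.69% of all names; the median was 0.62 beside 0.82. Scaled by TMM over the repeat names themselves, 25 of 204 were higher and 37 were lower, beside 16.6% and 13.9% of all names; the median was 0.10 beside 0.28. DESeq2, with its size factors from the genes, gave 172 higher and 5 lower, beside 70.4% and 2.55% of all names, and a median of 2.12 beside 2.36. Under each scaling the median of the microsatellites lay below that of all names tested. The scalings use the same counts, so these are not separate results. The repeat-scaled TMM fit is called repeat scaling in what follows. Where it turns the direction of a name described below, its value is given beside the name or in the closing section.

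**Figure D1:**
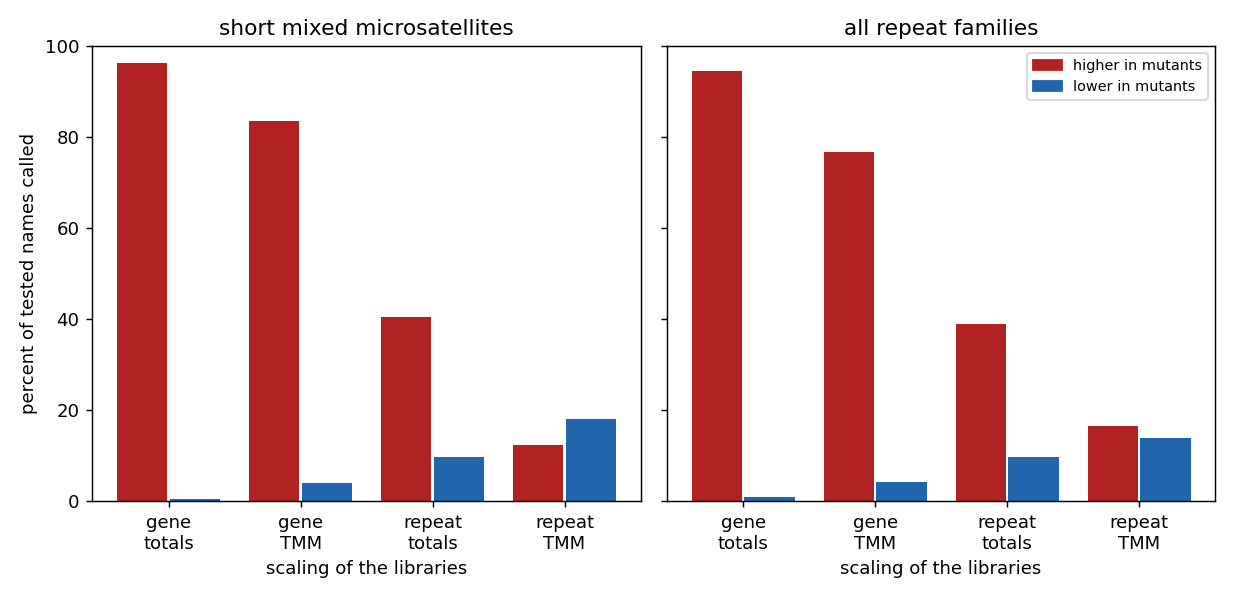
Percent of tested names called higher (red) or lower (blue) in mutants than in siblings under 4 scalings of the libraries, for the short mixed microsatellites (left) and all repeat names (right), at an adjusted p of 0.05. For the microsatellites the share called higher is 83.5% with gene TMM and 12.3% with repeat TMM, where more are called lower (18.1%).

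The classes by unit length differed in their medians. Of the 153 tested names with a unit of 4 bases, 134 were higher and 4 lower in mutants with gene scaling, against 24 higher and 13 lower with repeat scaling. Of the 43 names with a unit of 3 bases, 31 were higher and 4 lower with gene scaling, against 1 higher and 19 lower with repeat scaling. Of the 8 tested names with a unit of 2 bases, 6 were higher and 0 lower with gene scaling (7 higher and 0 lower by DESeq2), against 0 higher and 5 lower with repeat scaling. These counts stand beside 76.7% higher and 4.25% lower over all names with gene scaling, and 16.6% and 13.9% with repeat scaling, so that 72.1% of units of 3 and 87.6% of units of 4 lay on either side of the general share. Fewer names of each class were called higher without either mutant library. Without mutant replicate 1 the medians for units of 4, 3 and 2 were 2.20, 1.19 and 1.22, beside 2.13 over all names. Without mutant replicate 2 they were 2.08, 1.11 and 1.11, beside 2.00. The median log2 fold change was 2.03 for units of 4, 1.01 for units of 3 and 1.05 for units of 2, and 40 of the 43 names with a unit of 3 lay below the median of all names. With repeat scaling these medians were 0.38, -0.65 and -0.59. Simple repeats of the same unit lengths but with a CpG had a median of 2.05, with 33 of 49 higher, and those of A and T only had a median of 1.27, with 21 of 27 higher, all with gene scaling. With repeat scaling the median was 0.45 for those with a CpG, with 7 higher and 5 lower, and -0.37 for those of A and T only, with 0 higher and 7 lower.

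Among units of 4, 57 of 63 names with 1 G or C letter were higher in mutants with gene scaling. So were 61 of 69 with 2 such letters and 16 of 21 with 3. Their median log2 fold changes were 1.95, 2.01 and 3.03 when names without a sibling read are set at their lower bound. Of the 21 names with 3, 4 had no sibling read. Names with few or no sibling reads passed the count filter through their mutant reads. With no count filter 45 of 64, 49 of 80 and 12 of 30 were higher, beside 24.1% of all names. Without mutant replicate 1 fewer names of each class were called higher. The names with 3 such letters lost the largest part of their calls, and only their share then lay below that of all names. The medians of the fitted values, which are no bounds, were then 2.04, 2.18 and 3.80, beside 2.13 over all names. Among units of 3, 18 of 24 names with 1 such letter and 13 of 18 with 2 were higher, with medians of 1.21 and 0.85. Without mutant replicate 1 fewer of them were called higher, and the medians were 1.36 and 1.05. With repeat scaling the medians were -0.45 and -0.82 for these units of 3. Names of the same DNA count separately in all these medians. Of the 21 units of 4 with 3 such letters, 8 belong to the repeat of (AGGG)n. Summed over its names with gene scaling, that repeat had a log2 fold change of 6.33. The sum of (ACCC)n stood at 3.96, but that of (AGGC)n at 1.12 and that of (AGCC)n at 0.73, which did not pass. The median of 3.03 therefore does not describe each repeat of its class.

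**Figure D2:**
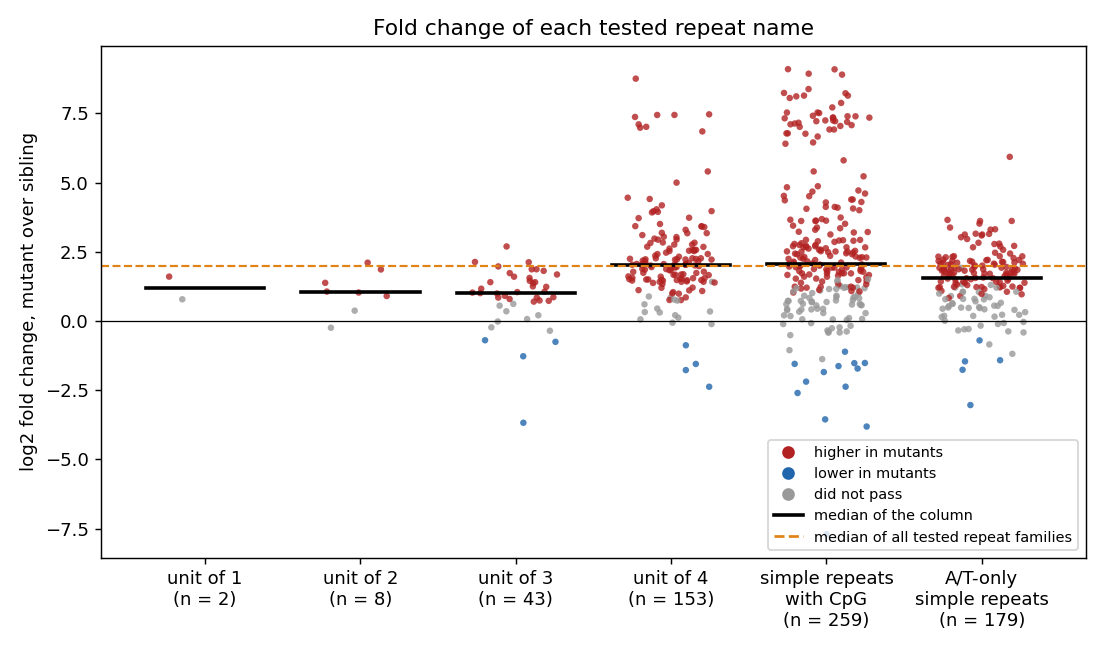
Log2 fold change of each tested name, mutant over sibling, with gene scaling (vertical axis), for the microsatellites by unit length and for simple repeats with CpG or of A and T only (columns). Each point is 1 name, coloured by its call, black bars are column medians and the dashed line is the median of all names, 1.98; units of 3 centre on 1.01 and units of 4 on 2.03. The 8 names without a sibling read are drawn at their fitted values, which are no bounds.

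The unit lengths can also be compared within each library, where scaling plays no part. Names with a unit of 4 had 0.716 and 0.734 reads for each read on a unit of 3 in mutants, against 0.439 and 0.369 in siblings. They had 0.418 and 0.415 reads for each read on a unit of 2 in mutants, against 0.322 and 0.278 in siblings. Names with a unit of 3 had 0.583 and 0.565 reads for each read on a unit of 2 in mutants, against 0.735 and 0.755 in siblings. The groups did not overlap in any of these 3 ratios; 2 against 2 libraries allow no exact permutation p below 0.33, so none is given.

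As a share of all repeat reads, the microsatellites took 5.25% and 5.37% in mutants, against 5.99% and 8.09% in siblings. The 95% Wilson intervals of these shares are at most a few hundredths of a percentage point to either side and cover counting error only. Units of 2 took 2.62% and 2.71% in mutants, against 2.91% and 3.98% in siblings, and units of 3 took 1.53% and 1.53% in mutants, against 2.14% and 3.0% in siblings. In both classes the mutants lay below the siblings. Units of 4 took 1.096% and 1.124% in mutants, against 0.939% and 1.107% in siblings. Here sibling replicate 2 lay between the mutant libraries, so the groups overlapped. Summed CPM gave the other direction: 551221 and 608726 CPM in mutants, against 341778 and 360100 CPM in siblings, 1.65-fold higher in mutants, while the share was 0.754-fold that of siblings.

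**Figure D3:**
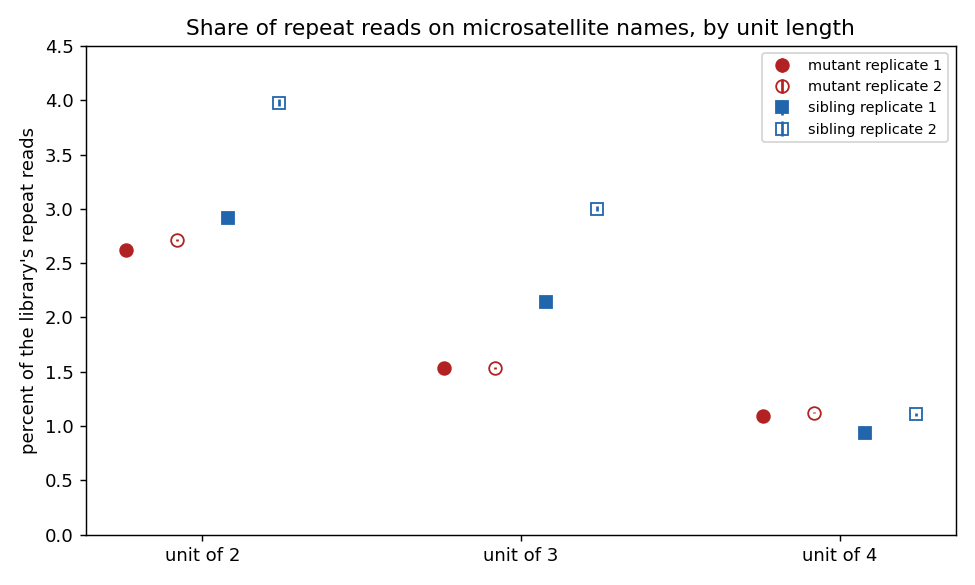
Percent of each library's repeat reads that fell on microsatellite names with units of 2, 3 and 4 bases, for the 2 mutant libraries (circles) and the 2 sibling libraries (squares); bars are 95% Wilson intervals, mostly smaller than the symbols. Mutants lie below siblings for units of 2 and 3, and sibling replicate 2, at 3.98% and 3.0%, lies farthest from the rest.

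The sibling libraries differed from each other more than the mutant libraries did. The median absolute log2 difference between replicates over the 206 tested names was 0.17 in mutants and 0.45 in siblings. It was above 1 for 2 names in mutants and 46 names in siblings. The sibling libraries held fewer repeat reads, which widens such gaps at low counts, and 43 of the 46 names have a unit of 4. Set against counting error, the spread over microsatellites was still larger in siblings. Its chi-square per degree of freedom was 26.6 in siblings and 3.73 in mutants. The widest gap was that of (CTAG)n, chosen after its values were seen, with 207 and 217 CPM in mutants, against 0 and 71.8 CPM in siblings.

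Homopolymer tracts had few reads beside the dinucleotides. (C)n had 261 and 279 CPM in mutants, against 97.3 and 80.1 CPM in siblings, and was higher in mutants with gene scaling, with a log2 fold change of 1.60 ± 0.35 (SE, n = 2 per group, edgeR adjusted p = 0.00196); with repeat scaling it was -0.03, and the call was lost without mutant replicate 2. Its complement (G)n had 217 and 244 CPM in mutants, against 173 and 93.9 CPM in siblings, and did not pass (0.79 ± 0.38, edgeR adjusted p = 0.0784). (CC)n had 1 read, in mutant replicate 1.

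Dinucleotides carried the most reads. The repeat of A and C is among the common dinucleotide tracts of vertebrate genomes, and its 4 dinucleotide names together held most of the dinucleotide reads in every library. (CA)n had 61432 and 68610 CPM in mutants, against 24610 and 25380 CPM in siblings, and was higher with gene scaling (1.38 ± 0.25, edgeR adjusted p = 0.000752) but at -0.28 with repeat scaling. (TG)n had 68327 and 74343 CPM in mutants, against 37225 and 30982 CPM in siblings (1.06 ± 0.26, edgeR adjusted p = 0.00318; -0.58, lower, with repeat scaling). Among these names the mutant libraries held the higher level with no overlap.

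(AC)n had 61675 and 69423 CPM in mutants, against 35973 and 34105 CPM in siblings (0.90 ± 0.25, edgeR adjusted p = 0.00695), but was lower with repeat scaling (-0.75). The gene-scaled calls of (AC)n and (TG)n were lost without mutant replicate 2, and that of (AC)n also without mutant replicate 1. (GT)n, the complement of (AC)n, had 47922 and 53665 CPM in mutants, against 50683 and 69554 CPM in siblings. It overlapped between the groups and did not pass with gene scaling (-0.24 ± 0.27, edgeR adjusted p = 0.407), was higher with gene totals (1.43) and lower with repeat scaling (-1.93).

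These 4 names share 1 repeated sequence, each with its own tracts, and their shares of one another's reads need no scaling. (GT)n took 20.0% and 20.2% of them in mutants, against 34.1% and 43.5% in siblings, whereas (CA)n took 25.7% and 25.8% in mutants, against 16.6% and 15.9% in siblings. For each read on (AC)n there were 0.777 and 0.773 reads on (GT)n in mutants, against 1.41 and 2.04 in siblings. The mutant libraries thus held fewer reads on (GT)n than on (AC)n, and the sibling libraries held more. Summed into 1 entry, these 4 names were higher in mutants with gene scaling by a log2 fold change of 0.71 ± 0.24 (edgeR adjusted p = 0.0155). The sum was not fitted with repeat scaling, under which each of the 4 names had a negative fold change.

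The repeat of A and G, a purine tract on one strand and a pyrimidine tract on the other, was less read. (AG)n had 7191 and 8308 CPM in mutants, against 1884 and 1712 CPM in siblings (2.11 ± 0.28, edgeR adjusted p = 0.000163; 0.46 and not passed with repeat scaling). (TC)n had 12667 and 14774 CPM in mutants, against 4255 and 3288 CPM in siblings (1.86 ± 0.28, edgeR adjusted p = 0.000271; 0.23 and not passed with repeat scaling). (GA)n had 5002 and 5521 CPM in mutants, against 2893 and 2261 CPM in siblings (1.03 ± 0.28, edgeR adjusted p = 0.00618; -0.61, lower, with repeat scaling), and its call was lost without either mutant library. (CT)n, the complement of (AG)n, had 10983 and 12560 CPM in mutants, against 8451 and 9719 CPM in siblings, and did not pass (0.37 ± 0.26, edgeR adjusted p = 0.201; -1.30, lower, with repeat scaling). There were 1.53 and 1.51 reads on (CT)n for each read on (AG)n in mutants, against 4.48 and 5.68 in siblings.

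**Figure D4:**
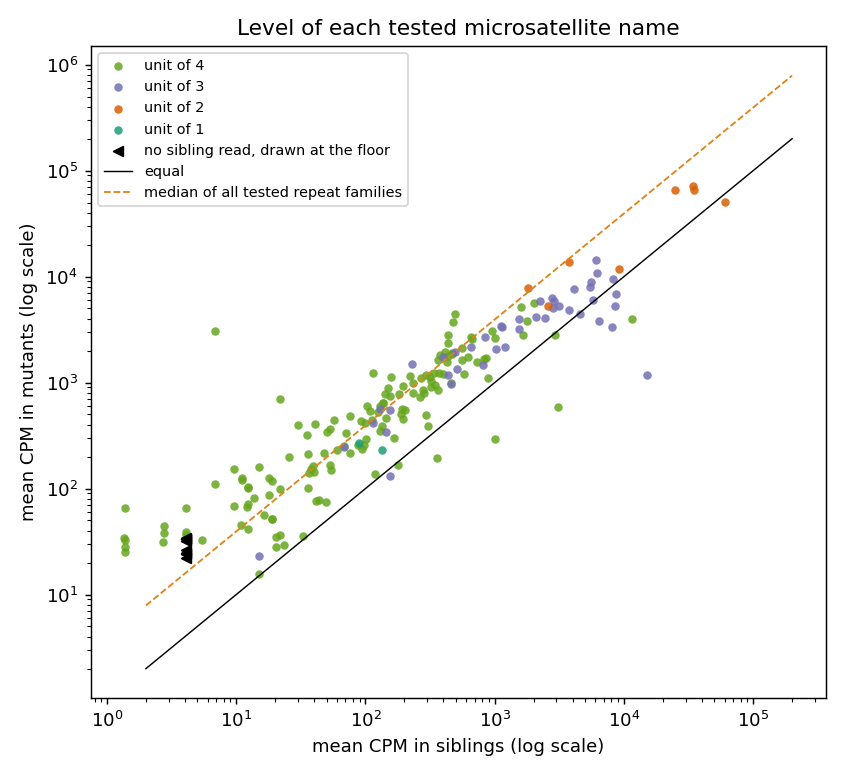
Mean CPM of each tested microsatellite name in mutants (vertical axis, log scale) against siblings (horizontal axis, log scale), with 2 libraries per group and gene scaling; colour gives the unit length and black triangles are the 8 names without a sibling read, drawn at the floor of 3 reads over the group. The solid line marks equal levels and the dashed line the median of all repeat names; most names lie between or above these lines, and (ACC)n lies farthest below the solid line.

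Among trinucleotides, the name that stood farthest apart was (ACC)n, a unit that on a coding strand can spell threonine codons. It had 1139 and 1206 CPM in mutants, against 14302 and 15655 CPM in siblings, from 1050 and 1124 reads in mutants, against 5290 and 5670 reads in siblings. The level was 12.8-fold lower in mutants (log2 fold change -3.67 ± 0.29, edgeR adjusted p = 8.26e-06), and it was lower under each of 5 scalings, between -5.34 with repeat scaling and -2.03 with gene totals, and without each library in turn. Over all repeat names, 0.891% were lower under all 5 scalings, and among the microsatellites (ACC)n was the only one. Gene totals alone called only that 1 microsatellite lower, so the other scalings are no separate support.

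The complement did not follow it. (GGT)n had 1290 and 1397 CPM in mutants, against 476 and 541 CPM in siblings, and was higher with gene scaling (1.40 ± 0.29, edgeR adjusted p = 0.00135; -0.26 with repeat scaling). There were 0.883 and 0.863 reads on (ACC)n for each read on (GGT)n in mutants, against 30.1 and 28.9 in siblings. Of the reads on all 6 names of this repeat, (ACC)n held 11.5% and 11.4% in mutants, against 52.9% and 69.6% in siblings. In mutants, then, the complements were nearly even, and in siblings nearly all reads of the pair were on (ACC)n. The rotation (CCA)n was also lower with gene scaling, with 3243 and 3443 CPM in mutants, against 11082 and 5072 CPM in siblings (-1.27 ± 0.36, edgeR adjusted p = 0.00755), but at 0.29 with gene totals and -0.57 without sibling replicate 1, and its call was lost without either mutant library. Its complement (TGG)n had 1332 and 1637 CPM in mutants, against 249 and 210 CPM in siblings, and was higher under all 5 scalings (2.69 ± 0.31, edgeR adjusted p = 9.69e-05; 1.05 with repeat scaling). Summed over its 6 names, the repeat was lower in mutants with gene scaling (-1.27 ± 0.27, edgeR adjusted p = 0.00109).

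The other trinucleotides with the most reads differed less between the groups. (TGC)n, which belongs to the repeat that expands in several human neuromuscular disorders, had 14509 and 14275 CPM in mutants, against 5848 and 6386 CPM in siblings (1.23 ± 0.26, edgeR adjusted p = 0.00149; -0.43 with repeat scaling). Its complement (GCA)n had 6022 and 6016 CPM in mutants, against 4699 and 6762 CPM in siblings, with the groups overlapping (0.07 ± 0.28, edgeR adjusted p = 0.820). (TCA)n had 10332 and 11220 CPM in mutants, against 6129 and 6284 CPM in siblings (0.80 ± 0.26, edgeR adjusted p = 0.0152; -0.86 with repeat scaling), and its call was lost without either mutant library. (TCC)n and (CAT)n did not pass. (TCC)n had 9231 and 9882 CPM in mutants, against 6767 and 9780 CPM in siblings (0.21 ± 0.28, edgeR adjusted p = 0.498), and (CAT)n had 6570 and 7030 CPM in mutants, against 9792 and 7563 CPM in siblings (-0.35 ± 0.27, edgeR adjusted p = 0.242; 1.26 with gene totals). The complement of (CAT)n, (ATG)n, was higher with gene scaling (1.03, edgeR adjusted p = 0.00513; -0.64 with repeat scaling), a call lost without either mutant library.

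Besides (TGG)n, the largest gene-scaled increases among trinucleotides were those of (CTA)n, (AGG)n and (CAC)n. (CTA)n had 558 and 581 CPM in mutants, against 154 and 105 CPM in siblings (2.13 ± 0.34, edgeR adjusted p = 0.000363). (AGG)n had 1620 and 1852 CPM in mutants, against 297 and 500 CPM in siblings (2.12 ± 0.33), and (CAC)n had 2022 and 1871 CPM in mutants, against 492 and 500 CPM in siblings (1.97 ± 0.29). All 3 kept a positive fold change with repeat scaling, between 0.32 and 0.51, without passing. The remaining names lower with gene scaling were (AGA)n and (TTC)n, which are the same repeat. (AGA)n had 3630 and 3960 CPM in mutants, against 5485 and 7289 CPM in siblings (-0.75 ± 0.28, edgeR adjusted p = 0.0277), and (TTC)n had 5061 and 5387 CPM in mutants, against 6543 and 10360 CPM in siblings (-0.69 ± 0.30, edgeR adjusted p = 0.0486). Both turned positive with gene totals (0.92 and 0.99) and were lost without either mutant library, and (TTC)n also without sibling replicate 2.

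The largest increase was that of a tetranucleotide. (CCTC)n had 2670 and 2960 reads in mutants, against 1 and 4 reads in siblings, that is 2897 and 3177 CPM in mutants, against 2.70 and 11.0 CPM in siblings. Its fitted fold was 432 (log2 fold change 8.76 ± 0.50, edgeR adjusted p = 1.64e-06), and 7.13 on the log2 scale with repeat scaling. It was 8.12 on that scale without sibling replicate 1 and 10.08 without sibling replicate 2. The few sibling reads lie close to the floor of 3 reads, so the size of the fold is less certain than its direction. (GAGG)n, its complement, had only 26 and 32 reads in mutants, against 1 and 1 reads in siblings (3.43 ± 0.80, edgeR adjusted p = 0.00263; lost without either mutant library). Of the reads on the 8 names of this repeat, (CCTC)n held 89.0% and 87.9% in mutants, against 11.1% and 18.2% in siblings, where the 8 names held only 9 and 22 reads.

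The other names with the largest fitted increases had no sibling read, so their folds are lower bounds against 3 reads over the sibling group. (GGGA)n had 31 and 32 reads in mutants and none in either sibling library, and was at least 8.29-fold higher. (GGAG)n had 30 and 32 mutant reads and none from siblings, and was at least 8.16-fold higher, as was (TACT)n with 40 and 22 mutant reads and none from siblings. (GGGA)n and (GGAG)n are rotations of (GAGG)n. The calls of (GGGA)n and (GGAG)n were lost without either mutant library, and that of (TACT)n with repeat scaling and without a count filter. Without mutant replicate 1 (TACT)n was no longer tested. In all, 8 tested names had no read in siblings, with bounds between 5.40 and 8.29-fold. They passed the count filter through their mutant reads alone, as did names with few sibling reads such as (CCTC)n and (GAGG)n.

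(TACA)n was lower in mutants with gene scaling, with 589 and 594 CPM in mutants, against 3336 and 2797 CPM in siblings (-2.37 ± 0.29, edgeR adjusted p = 0.000118; -4.01 with repeat scaling; -0.76, not passed, with gene totals). Its complement (TGTA)n had 2550 and 2783 CPM in mutants, against 660 and 641 CPM in siblings (2.04 ± 0.28; 0.38, not passed, with repeat scaling). There were 0.231 and 0.213 reads on (TACA)n for each read on (TGTA)n in mutants, against 5.06 and 4.37 in siblings. The complements thus changed order between the groups within the same libraries. (TCAA)n was likewise lower with gene scaling, with 271 and 318 CPM in mutants, against 1079 and 933 CPM in siblings (-1.77 ± 0.30, edgeR adjusted p = 0.000466; -0.15, not passed, with gene totals), while its complement (TTGA)n was higher (2.24; 0.58, not passed, with repeat scaling).

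The most read tetranucleotide name, (TCTC)n, is the dinucleotide tract of T and C under a longer unit. It had 3928 and 3983 CPM in mutants, against 11033 and 12138 CPM in siblings (-1.55 ± 0.26, edgeR adjusted p = 0.000491; 0.10 with gene totals). (CTCT)n, the same DNA on the same strand 1 base out of phase and named here after its values were seen, had 1560 and 1724 CPM in mutants, against 400 and 331 CPM in siblings (2.17 ± 0.30, edgeR adjusted p = 0.000194). There were 2.52 and 2.31 reads on (TCTC)n for each read on (CTCT)n in mutants, against 27.6 and 36.6 in siblings. (GAGA)n, the complement of (TCTC)n, had 522 and 279 CPM in mutants, against 48.7 and 11.0 CPM in siblings, and was higher under all 5 scalings (3.73 ± 0.58, edgeR adjusted p = 0.000309; 5.19 without sibling replicate 1 and 3.06 without sibling replicate 2). The 2-letter names of this DNA, (TC)n and (CT)n, did not share the lower level of (TCTC)n with gene scaling.

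The other well-read tetranucleotides were mostly higher with gene scaling. (TGTG)n had 5188 and 5968 CPM in mutants, against 2279 and 1739 CPM in siblings (1.47 ± 0.29, edgeR adjusted p = 0.00104; -0.16 with repeat scaling). (TTTG)n had 5094 and 5278 CPM in mutants, against 1711 and 1499 CPM in siblings (1.69 ± 0.28, edgeR adjusted p = 0.000405; 0.05 with repeat scaling). (TTTC)n had 3466 and 4125 CPM in mutants, against 1814 and 1764 CPM in siblings (1.08 ± 0.28, edgeR adjusted p = 0.00444; -0.57 with repeat scaling), and was lost without mutant replicate 2. The exception was (TCTG)n, with 2463 and 3104 CPM in mutants, against 2868 and 2935 CPM in siblings, which overlapped between the groups (-0.06 ± 0.28, edgeR adjusted p = 0.845). The last name lower with gene scaling, (TTCC)n, had 172 and 218 CPM in mutants, against 454 and 262 CPM in siblings (-0.88 ± 0.36, edgeR adjusted p = 0.0439); it was at 0.71 with gene totals and was lost without either mutant library or without sibling replicate 1.

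Under all 5 scalings (gene TMM, gene totals, repeat totals, repeat TMM and DESeq2's size factors from genes), 25 microsatellites were higher in mutants, of which 24 have a unit of 4 and the other is (TGG)n. Over all repeat names tested 16.2% were so, which is a larger share than 25 of 206. Repeat TMM alone called the same 25 names, so the other scalings are no separate support for them. The 25 names include 6 of the 8 names of a tetranucleotide repeat. These are (ATCC)n with its rotations (CATC)n and (CCAT)n, then in the reverse orientation (GATG)n and (TGGA)n, and the further rotation (TCCA)n. The most read of these, chosen after their values were seen, was (TGGA)n, with 3966 and 4981 CPM in mutants, against 587 and 406 CPM in siblings (3.17 ± 0.33, edgeR adjusted p = 6.4e-05). Its complement (TCCA)n had 3363 and 4172 CPM in mutants, against 565 and 392 CPM in siblings (2.98 ± 0.32). For this repeat all 8 names, in both written orientations, were higher with gene scaling, between 2.32 and 3.17. The sum was higher by 2.95 ± 0.31. Of the 25 names, (AGCA)n, (GGAG)n and (GGGA)n lost their calls when a library was left out. How often all repeat names did so was not counted. Names with few sibling reads that kept their calls, such as (CCTC)n and (CCTT)n, passed the count filter through their mutant reads.

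The complements of the other names described above, given as log2 fold changes with gene scaling and then with repeat scaling, were mostly higher. Among trinucleotides (GGA)n stood at 0.85 and -0.82, (TGA)n at 1.17 and -0.50, (TCT)n at 0.73 and -0.97 and (GAA)n at 1.45 and -0.20. (TAG)n stood at 1.81 and 0.19, (CCT)n at 0.74 and -0.93 and (GTG)n at 1.06 and -0.61. All 7 passed as higher with gene scaling, and those of (GGA)n, (TCT)n, (CCT)n and (GTG)n were lost without either mutant library. Among tetranucleotides (CACA)n stood at 0.76 and -0.88, (CAAA)n at 2.02 and 0.34, (CAGA)n at 2.01 and 0.35 and (GAAA)n at 1.42 and -0.19, all higher with gene scaling; (CACA)n was lost without either mutant library. (TCCC)n stood at 3.50 and 1.86 and (CTCC)n at 2.27 and 0.61, also higher with gene scaling but not passed with repeat scaling, and (CTCC)n was lost without either mutant library. Without sibling replicate 2 they stood at 4.53 and 3.42, and (CTCC)n at 1.67 without sibling replicate 1. (AGTA)n was higher under all 5 scalings, at 3.97 with gene scaling. (GGAA)n had too few reads to be tested.

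Across the 94 complement pairs with both names tested, 67 had both names higher with gene scaling and 7 had 1 name higher and the other lower. Of the 206 tested names 83.5% were higher and 3.88% lower. Unrelated pairs of names were not counted, so these counts show nothing particular to complements. The median absolute difference between complements was 0.70 on the log2 scale, and 37 pairs differed by more than 1. Of the 34 repeats with at least 2 tested names, 11 had every tested name higher and 6 held both a higher and a lower name; these 6 are the trinucleotide repeats of (AAG)n and (ACC)n and the tetranucleotide repeats of (AAGG)n and (AATC)n, of (ACAT)n, and of (AGAG)n. When the reads of all names of a repeat were summed before testing, 26 of 35 repeats were higher and 2 lower in mutants with gene scaling. Their median log2 fold change was 1.17, and in that fit 76.4% of all entries were higher and 4.26% lower. The summed entries were fitted with gene scaling only. The 2 lower sums were those of (ACC)n and (AGAG)n (-0.95 ± 0.27, edgeR adjusted p = 0.00634). The names of (AG)n, the same DNA under a shorter unit, were summed apart and were higher (1.16 ± 0.26, edgeR adjusted p = 0.00151). The lower sum thus covers only the tetranucleotide names of this DNA. The highest sum was that of (AGGG)n, which contains (CCTC)n, at 6.33 ± 0.46 (edgeR adjusted p = 1.65e-06).

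**Figure D5:**
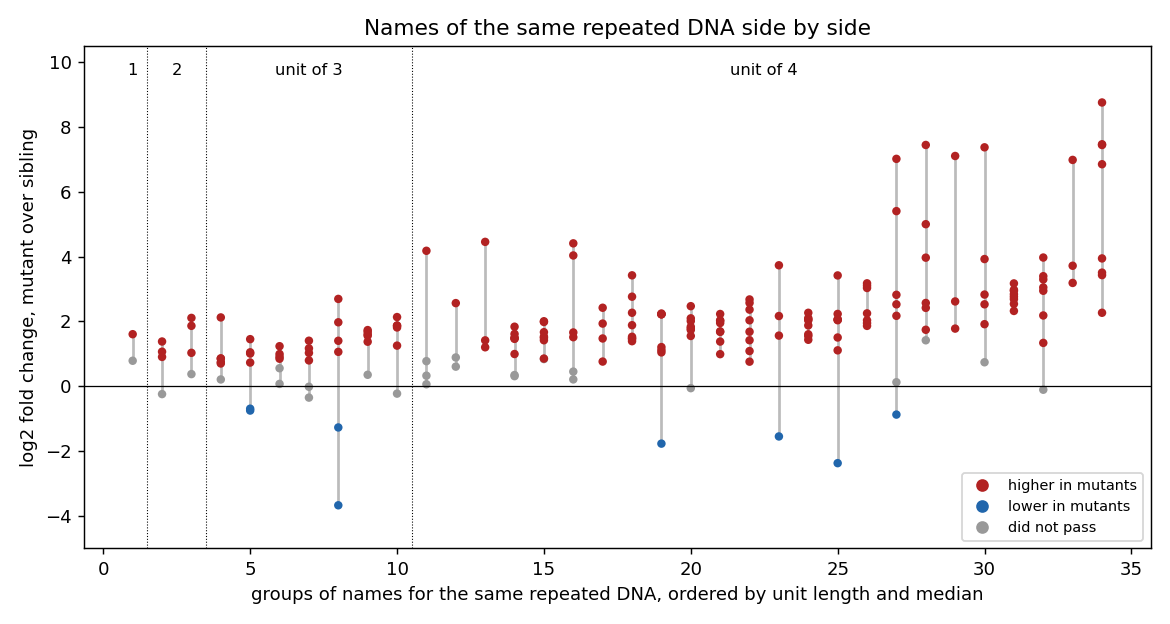
Log2 fold change, mutant over sibling, with gene scaling (vertical axis), for the names of each of 34 repeats with at least 2 tested names (horizontal axis, ordered by unit length and then by median); each point is 1 name, coloured by its call, and grey lines join the names of the same DNA. In 6 repeats a blue point (lower in mutants) stands on the same line as red points (higher), the lowest being (ACC)n at -3.67; names without a sibling read are drawn at their fitted values, which are no bounds.

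Of proteins known to bind short repeats in RNA, 12 of 19 listed genes were matched and 11 tested, of which 2 were higher and 1 lower in mutants; over all 8133 genes tested 35.2% were higher and 25.9% lower. CELF2, which binds U- and G-rich tracts and regulates splicing, had 62 and 43 reads in mutants, against 4 and 2 reads in siblings (2.76 ± 0.52, edgeR adjusted p = 0.000563). hnrnpl2, a relative of the CA-repeat-binding splicing factor hnRNP L, had 34 and 28 reads in mutants, against 4 and 2 reads in siblings (2.00 ± 0.55, edgeR adjusted p = 0.00643). cnbpa, an orthologue of a zinc-finger protein that binds G-rich single-stranded nucleic acid, had 60 and 53 reads in mutants, against 72 and 131 reads in siblings (-2.19 ± 0.36, edgeR adjusted p = 0.000216). The group median was 0.86, beside 0.48 over all genes tested. Fewer of these genes were called without mutant replicate 1, and fewer without mutant replicate 2. The group medians were then 0.71 and 0.79, beside 0.29 and 0.32 over all genes. The neuron and muscle markers were higher in the same libraries, and their part in these values was not tested.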

How the data were processed

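The authors deposited whole-number counts of reads for genes and for repeat names, a column for each library, per the file headers. The submitters' processing notes name TopHat2, HTSeq, DESeq2 and the build GRCz10, with no tool versions. The sources used here state no settings, strand use, repeat annotation or treatment of multi-mapping reads. Microsatellite reads map to many places, and their counts rest on that treatment. No genome was used here, so no tract positions are given.

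Genes were filtered with edgeR's filterByExpr and scaled by TMM, and these library sizes and factors also scaled the repeat counts. Repeat names and genes were tested with edgeR 4.0.16 (R 4.3.3, limma 3.58.1), quasi-likelihood with robust fitting and Benjamini-Hochberg adjustment over all names or genes tested, at 0.05. Standard errors are the log2 fold change divided by the root of F. The fitting code was also run on simulated counts with no general shift and the same spread in both groups. That run does not bear on the calls given here. Alternatives were plain gene totals, repeat totals, repeat TMM, DESeq2 1.42.0, no count filter, leaving out each library and a replicate block. Of 31953 gene identifiers, 26121 matched a symbol.

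Names given with full values were all those with units of 1 or 2, and for units of 3 and of 4 the 5 with the highest mean CPM, the 4 called with the largest positive and the 4 with the largest negative change, and their complements; others are said to be chosen later. The members, lists and markers were chosen with earlier results of these data known. The labels do not tie a replicate to a clutch, so p-values measure only the spread between these libraries, which may be technical. With 2 libraries a group, 3 reads is worth 3.25 and 3.22 CPM in mutants, and 8.11 and 8.28 CPM in siblings. One list of DNA repair genes is not reported here.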

Additional observations from a re-analysis of the deposited data

How the results depend on the processing

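The scaling of the libraries changed the results most. Microsatellites called higher numbered 25 with repeat TMM and 83 with repeat totals, beside 172, and those called lower numbered 1 with gene totals, 37 with repeat TMM, 20 with repeat totals, 5 with DESeq2 and 4 without a count filter, beside 8. Over all repeat names, 544 with repeat TMM and 1291 with repeat totals were higher, and 30 with gene totals, 456 with repeat TMM, 321 with repeat totals, 86 with DESeq2 and 88 without a filter were lower. The microsatellite median was 3.41, 0.10, 0.62 and 2.12 with gene totals, repeat TMM, repeat totals and DESeq2. As a share of repeat reads the summed log2 change was -0.41.

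With one library left out, 101 to 183 microsatellites were higher and 4 to 8 lower, their median was 1.65 to 2.05, and 1299 to 3028 of all names were higher and 52 to 183 lower. Of the repeat-RNA-binding genes 9 of 11 were called higher and 0 lower with gene totals, with a median of 2.49 beside 2.12 over all genes. With DESeq2, and also without a filter, 1 was called higher and 1 lower. The shares of all genes called in these fits are not given, so the counts show nothing particular to the list. With a library left out the median of the list was 0.67 to 0.92, beside 0.29 to 0.62 over all genes. The range was -0.42 to 0.036 for (GT)n, -0.10 to 0.21 for (TCTG)n and -0.13 to 0.39 for (GCA)n.

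Single names turned direction as follows. Repeat TMM gave (C)n -0.031, (G)n -0.83, (AC)n -0.75, (CA)n -0.28, (CT)n -1.30, (GA)n -0.61, (TG)n -0.58, (TGC)n -0.43, (TCC)n -1.48, (TCA)n -0.86, (GCA)n -1.61, (GGA)n -0.82, (TGA)n -0.50, (GGT)n -0.26, (ATG)n -0.64, (CCT)n -0.93, (GTG)n -0.61, (TCT)n -0.97, (GAA)n -0.20, (TGTG)n -0.16, (TTTC)n -0.57, (CACA)n -0.88 and (GAAA)n -0.19. Repeat totals gave (G)n -0.29, (AC)n -0.22, (CT)n -0.77, (GA)n -0.075, (TG)n -0.046, (TCC)n -0.95, (TCA)n -0.33, (GCA)n -1.08, (GGA)n -0.29, (ATG)n -0.11, (CCT)n -0.40, (GTG)n -0.079, (TCT)n -0.43, (TTTC)n -0.041 and (CACA)n -0.35. Gene totals gave (GT)n 1.43, (CAT)n 1.26, (CCA)n 0.29, (AGA)n 0.92, (TTC)n 0.99, (TCTC)n 0.10, (TCTG)n 1.58 and (TTCC)n 0.71. DESeq2 gave (GT)n 0.14, (CAT)n 0.017 and (TCTG)n 0.31. The cause was not tested.

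The labels do not say whether replicate numbers pair the libraries. The correlation of same-numbered deviations was 0.11 over microsatellites, -0.02 over repeat names and 0.03 over genes. It rests on a single difference between libraries in each group, so it cannot show whether a clutch pairs them. With a replicate block 155 microsatellites were higher and 5 lower, beside 2116 and 103 of the 3366 names tested.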
